A study of Rattus norvegicus with 6 samples.

Results

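Receptors for the signals that make the pancreas secrete, and the channels and pumps that move calcium behind them, were examined in rats fed ethanol and in rats fed a control diet. The set comprised 9 genes, Chrm1, Chrm3, Sctr, Vipr1, Itpr1, Itpr2, Itpr3, Atp2a2 and Atp2b1, and took every probe set that the platform annotation ties to one of these symbols alone. All 9 were found, on 14 of 15866 probe sets, where the array as a whole reads 10411 genes through a single symbol. Chrm3 and Itpr2 had 2 probe sets each, Atp2a2 had 4, and the remaining 6 genes had 1. Pancreas came from 3 ethanol-fed and 3 control-fed rats, each rat on an array of its own, and the question was how long-term ethanol intake affects the gland. None of the sources used here gives the strain, age, ethanol dose, feeding time or diet composition.

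Acinar cells, which make up most of the gland, release digestive enzymes when acetylcholine, cholecystokinin or hormones of the secretin family bind their receptors. Muscarinic and cholecystokinin receptors act through Gq proteins and phospholipase C, which makes inositol trisphosphate, the ligand of the Itpr channels through which calcium leaves the endoplasmic reticulum (ER). Pumps then clear the cytosol, SERCA pumps into the ER and PMCA pumps out of the cell, while secretin and VIP receptors act mainly through Gs proteins and cyclic AMP. Sustained calcium signals in acinar cells are a known feature of pancreatitis, for which alcohol is a common setting.

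Medians were 543 or 544 intensity units on every array, so a difference between diets in total RNA could not be seen. The ratio of 3' to 5' signal, which rises with RNA breakdown, ran from 1.54 to 1.78 in ethanol rats and from 1.44 to 2.01 in control rats for beta-actin (two-sided exact permutation p = 0.6). For the check of the tissue label, all 12 acinar markers with a probe set were above the intensity filter (a mean log2 level at or above the 40th percentile), and the carboxypeptidase Cpa1 read 162409 to 168642 on the ethanol arrays and 161528 to 166828 on the control arrays. Of the 9520 probe sets tested over the whole array, 39 changed by limma's moderated test, at a Benjamini-Hochberg adjusted p under 0.05.

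The promoters of 3 of the genes are shown here, each as the 250 bases before the RefSeq gene start (rat GRCr8, + strand, written 5′ to 3′). Atp2a2 is shown because its 4 probe sets give the most repeated reading in the set, and the capitals mark the letters of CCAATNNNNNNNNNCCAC, which is the ER stress response element without its last base. Chrm3 and Sctr are shown as the receptors measured above the filter, and the capitals mark CACCTG (in Chrm3 its reverse complement), an E-box of the kind bound by the acinar factor Ptf1a with its partners.
Atp2a2, chr12:39733269-39733518: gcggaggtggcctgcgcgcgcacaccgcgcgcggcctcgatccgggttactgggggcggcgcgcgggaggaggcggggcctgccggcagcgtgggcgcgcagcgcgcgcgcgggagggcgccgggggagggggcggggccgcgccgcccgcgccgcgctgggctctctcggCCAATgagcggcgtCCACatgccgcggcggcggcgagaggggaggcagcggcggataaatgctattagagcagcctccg
Chrm3, chr17:64696677-64696926: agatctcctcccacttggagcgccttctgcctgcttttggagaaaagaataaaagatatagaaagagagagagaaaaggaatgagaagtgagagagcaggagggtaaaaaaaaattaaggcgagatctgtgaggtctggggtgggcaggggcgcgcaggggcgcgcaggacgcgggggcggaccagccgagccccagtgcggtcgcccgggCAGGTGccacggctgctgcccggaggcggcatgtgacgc
Sctr, chr13:33680377-33680626: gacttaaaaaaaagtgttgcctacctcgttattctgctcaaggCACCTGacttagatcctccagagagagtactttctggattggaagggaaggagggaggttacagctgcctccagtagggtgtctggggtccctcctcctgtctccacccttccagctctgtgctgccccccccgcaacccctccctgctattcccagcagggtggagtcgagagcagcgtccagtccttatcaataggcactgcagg

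Both strands of every promoter window were searched, and the motifs were chosen after the sequences had been seen. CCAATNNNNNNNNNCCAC was found in Atp2a2 alone of the 9 genes, from base -79 to base -62 relative to the gene start, and in 0.29% of 33469 rat promoter windows. With the last base added, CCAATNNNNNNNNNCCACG was found in none of the 9 genes and in 0.0657% of the windows. CACCTG was found in Chrm3 (on the opposite strand, bases -39 to -34), Sctr (bases -207 to -202) and Itpr2, and in 15.9% of the windows. The letters TATAAA, the core of 1 promoter type, were in none of the 9 genes and in 12.9% of the windows. The cyclic AMP response element, TGACGTCA, was in none of the 9 and in 1.59% of the windows. The ratio of observed to expected CG pairs was 1.17 in the Atp2a2 window, higher than in 99.0% of windows, and 0.206 in the Sctr window, against a median of 0.383 over all windows. These matches describe letters in a short stretch before 1 annotated start per gene.

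In the pancreas, no gene of the set passed the test between diets, and most readings of ethanol and control rats overlapped. Of the 14 probe sets, 11 of 7 genes lay above the intensity filter and were tested. Of these, 6 had a log2 change above 0 and 5 below it, from -0.32 for Itpr3 to 0.39 for Chrm3, with standard errors from 0.15 to 0.19. With limma 0 of the 11 were called, and 1 of them, Chrm3, had an unadjusted p under 0.05; over all tested probe sets these shares were 0.410% and 18.4%. The adjusted p of the 11 ran from 0.242 to 0.975. Their median absolute log2 change was 0.13, beside 0.21 over all tested probe sets. Arrays of the diets did not overlap on 2 of the 11, Chrm3 above and Itpr3 below. Diets were apart on 25.4% of all tested probe sets, ethanol above on 11.1% and below on 14.3%. Levels are intensities as deposited and changes are ethanol minus control on the log2(intensity + 50) scale. Since each probe set binds with its own strength, levels of different probe sets were not compared as amounts of transcript, and brighter or dimmer refers to signal alone.

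**Figure D1:**
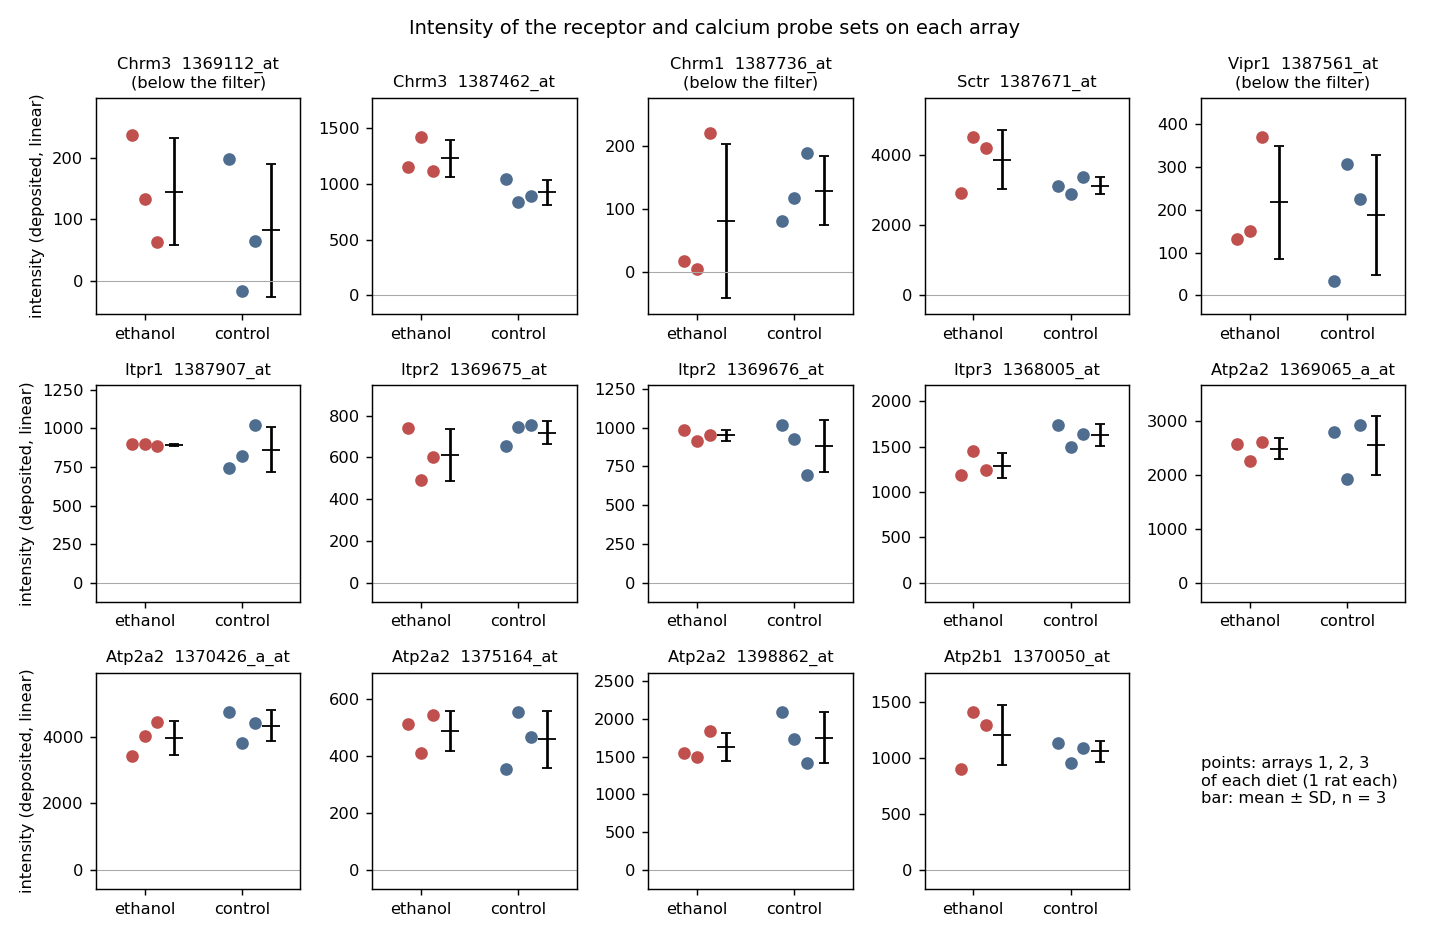
Deposited intensity (y axis, linear) of the 14 probe sets on each array, ethanol diet left and control diet right in each panel, with mean ± SD over 3 rats as a black bar. Points of the diets are separate on Chrm3 probe set 1387462_at and Itpr3 probe set 1368005_at, and the 3 probe sets below the filter read between -16 and 369.

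Among the receptors, Chrm3, the muscarinic receptor through which acetylcholine drives acinar secretion, gave the smallest p of the set. Probe set 1387462_at read 1147, 1416 and 1119 in ethanol rats 1, 2 and 3, against 1047, 834 and 887 in control rats 1, 2 and 3. Every ethanol array was above every control array, though the lowest ethanol value and the highest control value were close together. The means were 1227 ± 164 in ethanol rats and 923 ± 111 in control rats (SD, n = 3). The log2 change was 0.39 (SE 0.16, 95% interval 0.03 to 0.76), a fold of 1.31, and limma's adjusted p was 0.242 (unadjusted p = 0.0389), so it was not called. Of all tested probe sets, 16.1% had a smaller p.

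The second Chrm3 probe set, 1369112_at, was dim and lay below the filter. It read 238, 134 and 64 in ethanol rats, against 198, -16 and 65 in control rats, and these ranges overlap. The difference of means on the log2 scale was 0.69, with no test in the filtered fit and an unadjusted p of 0.346 by limma without the filter. The difference was 1.06 with a constant of 20 and 0.47 with 100 in place of 50, and ran from 0.11 without control rat 2 to 1.26 without control rat 1. The change of this probe set and that of the brighter probe set differed by 0.30 on the log2 scale (two-sided exact permutation p = 0.7), or by 0.65 with a constant of 20 and 0.09 with 100.

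Chrm1, the muscarinic receptor best known from neurons and glands, was low on every array. It read 17, 4 and 221 in ethanol rats and 80, 118 and 189 in control rats. Ethanol rat 3 was above all controls and the others were below them, so the diets overlap, and the probe set was below the filter. No detection calls were used here, so whether these values differ from background is not known.

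Sctr, the receptor for secretin, stood well above the filter. It read 2917, 4517 and 4211 in ethanol rats, against 3133, 2901 and 3373 in control rats. Ethanol rats 2 and 3 were above all controls, and ethanol rat 1 lay among them. Means were 3882 ± 849 in ethanol rats and 3136 ± 236 in control rats (SD, n = 3), and the log2 change was 0.28 (SE 0.19, 95% interval -0.15 to 0.72, limma adjusted p = 0.461). The change was 0.47 without ethanol rat 1 (limma adjusted p = 0.188) and 0.16 without ethanol rat 2 (limma adjusted p = 0.691), and lay between these without any other array. The interval of the change spans folds from 0.90 to 1.64. In rat pancreas both duct and acinar cells carry this receptor.

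Vipr1, a receptor for VIP and PACAP, read 132, 151 and 369 in ethanol rats and 34, 308 and 224 in control rats. The lowest and the highest of the 6 values were a control and an ethanol array, and the diets overlap. It was below the filter and had no test there. Without the filter its log2 difference was 0.30 (limma unadjusted p = 0.664). The sign turned without control rat 1 (-0.33) and without ethanol rat 3 (-0.08).

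The 3 inositol trisphosphate receptors are the calcium release channels of the ER; Itpr2 and Itpr3 are the forms of acinar cells, placed near the apical pole where granules are released. Itpr3 read 1184, 1447 and 1239 in ethanol rats, against 1740, 1500 and 1636 in control rats. Every ethanol array was below every control array. Means were 1290 ± 139 in ethanol rats and 1625 ± 120 in control rats (SD, n = 3). The log2 change was -0.32 (SE 0.15, 95% interval -0.66 to 0.01), a fold of 0.798, with a limma adjusted p of 0.285 (unadjusted p = 0.0561). Its spread within a diet was 0.127 on the log2 scale, smaller than in all but 16.3% of tested probe sets.

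Itpr2 was read by 2 probe sets whose changes had opposite signs. Probe set 1369675_at read 740, 490 and 603 in ethanol rats and 654, 745 and 757 in control rats. Probe set 1369676_at read 987, 912 and 949 in ethanol rats and 1018, 927 and 696 in control rats. On both, the diets overlap. The log2 changes were -0.23 (SE 0.17, limma adjusted p = 0.504) and 0.12 (SE 0.17, limma adjusted p = 0.739). The difference between them was -0.35 (two-sided exact permutation p = 0.2, adjusted p over 8 probe set pairs 0.9), where 3 arrays against 3 cannot give a p below 0.1. With 1 array left out it ran from -0.52 without control rat 1 to -0.16 without control rat 3, and the change of 1369675_at from -0.37 without ethanol rat 1 to -0.10 without ethanol rat 2. The mean of both probe sets gave -0.06.

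Itpr1, the form that prevails in the brain, read 901, 896 and 888 in ethanol rats and 744, 819 and 1024 in control rats. All ethanol values lay between the second and the highest control value. Their SD was 6.56 in ethanol rats and 145 in control rats. The log2 change was 0.06 (SE 0.16, 95% interval -0.29 to 0.42, limma adjusted p = 0.862).

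**Figure D2:**
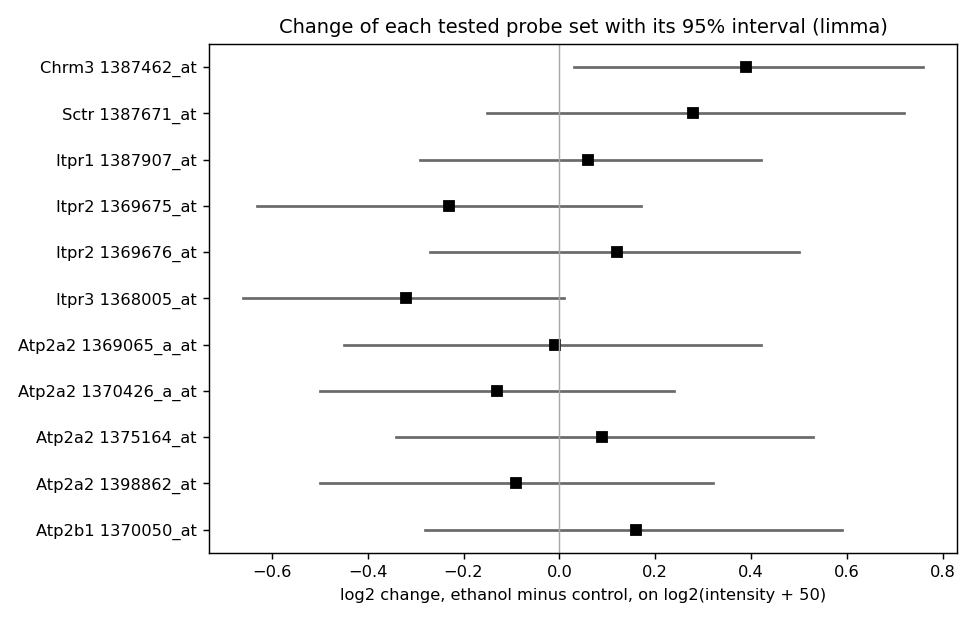
Log2 change, ethanol minus control (x axis, on log2(intensity + 50)), of the 11 tested probe sets (y axis), with squares for limma's estimate and lines for its 95% interval. The interval of Chrm3 starts at 0.03 and that of Itpr3 ends at 0.01, the other 9 span 0 more widely, and no probe set passed after adjustment.

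Atp2a2 encodes SERCA2, the pump that refills the ER, and its 4 probe sets all gave changes near 0. The brightest, 1370426_a_at, read 3413, 4024 and 4454 in ethanol rats and 4742, 3819 and 4424 in control rats. Probe set 1369065_a_at read 2568, 2259 and 2611 in ethanol rats and 2794, 1911 and 2925 in control rats. On both the diets overlap, with the lowest reading from ethanol rat 1 on the brightest and from control rat 2 on the other. Probe set 1398862_at read 1552, 1493 and 1835 in ethanol rats and 2093, 1742 and 1421 in control rats. The dimmest, 1375164_at, read 511, 410 and 545 in ethanol rats and 354, 554 and 467 in control rats. These overlap as well. In the same order the log2 changes were -0.13, -0.01, -0.09 and 0.09, with standard errors of 0.16, 0.19, 0.18 and 0.19 and limma adjusted p from 0.705 to 0.975.

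The 95% intervals of the 4 Atp2a2 probe sets reached at most -0.50 downwards and 0.53 upwards, so changes of up to these sizes are within the error. Their changes differed from each other by at most 0.22 on the log2 scale, between 1370426_a_at and 1375164_at. For the 6 pairs the two-sided exact permutation p ran from 0.5 to 0.9 (adjusted p over 8 probe set pairs 0.9), in a design whose smallest p is 0.1, so these values do not show that the probe sets agree. Array by array, Pearson's r between probe sets was from -0.505 to 0.51 over the 6 arrays (a description, with no test).

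Atp2b1, a PMCA pump that expels calcium across the plasma membrane, read 903, 1414 and 1302 in ethanol rats and 1139, 957 and 1088 in control rats. Ethanol rats 2 and 3, which also read highest on Sctr, were above all controls, and ethanol rat 1 was below them. The log2 change was 0.16 (SE 0.19, 95% interval -0.28 to 0.59, limma adjusted p = 0.693). It was 0.34 without ethanol rat 1 (limma adjusted p = 0.309), 0.03 without ethanol rat 2 (limma adjusted p = 0.944) and 0.09 without ethanol rat 3 or control rat 2.

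The probe sets most like Chrm3 over the 6 arrays, of 7982 others with 1 symbol, were those of Lclat1, a lysophospholipid acyltransferase (Pearson's r = 0.992), Ndufc2, a subunit of respiratory complex I (0.989), and Bpnt1, a bisphosphate nucleotidase (0.985). Lclat1 read 1160, 1293 and 1158 in ethanol rats and 1140, 982 and 1028 in control rats. These are the highest of many correlations over 6 points that share the diet difference, and are given as a description. None of the 3 passed (limma adjusted p from 0.299 to 0.497).

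Pancreas tissue holds other cells that carry these receptors, and fewer cells of a type cannot be told apart from less RNA per cell. No marker of another cell type passed over all probe sets. The summed level of 7 nerve and glia markers was 3355 to 3664 in ethanol rats and 2600 to 2969 in control rats, without overlap. The brightest markers of that list overlapped between diets: Prph read 682 to 1034 in ethanol rats and 632 to 802 in control rats (log2 change 0.17), and Nefl was at -0.11. Uchl1, Snap25 and Nefm were below the filter. Of the 4 tested markers of the list, 1 was higher at an unadjusted p under 0.05, as were 8.08% of all tested probe sets. Smooth muscle markers, of which all but Myh11 were below the filter, summed to 1351 to 1813 in ethanol rats and 1401 to 1587 in control rats. The 5 duct markers summed to 9401 to 9887 in ethanol rats and 10644 to 11537 in control rats, with Krt19 below the filter. Most of that sum was Muc1, at 7234 to 7654 in ethanol rats and 8542 to 9442 in control rats. Muc1 was not called (log2 change -0.27, SE 0.13, limma adjusted p = 0.319), and the next brightest, Slc4a4, overlapped between diets (-0.09). Erythroid markers summed to 25817 to 33618 in ethanol rats and 15625 to 23125 in control rats. Of the 4 tested erythroid markers, 3 were higher at an unadjusted p under 0.05, beside the same 8.08% of all tested probe sets. Summed markers overlapped between diets for islet, stellate, endothelial and immune cells. Acinar (1391602 to 1448839 in ethanol rats and 1366417 to 1390130 in control rats) and fat markers (6493 to 8256 in ethanol rats and 3939 to 6182 in control rats) were higher on every ethanol array. For acinar markers the gap between diets was narrow, from 1390130 to 1391602, and their median log2 change was 0.03. The acinar marker Cpa1 read near the array maxima, which ran from 163449 to 171742. Log2 changes of the brightest markers ran from -0.52 for the immune gene Cd74 to 0.80 for the globin Hbb, with the insulin gene Ins2 at -0.09, the insulin gene Ins1 at -0.17 and the collagen Col3a1 at -0.05. The brightest pairs of endothelial and fat markers had opposite signs, Tie1 at 0.38 and Kdr at -0.18, and Lpl at 0.77 and Fabp4 at -0.13. The part of any of these in the readings of the 9 genes was not tested.

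Around the 9 genes, 109 further genes of the pathway were tested in 6 lists by role. On the probe set of highest mean, limma called 0 of the 109 (lowest adjusted p = 0.0764), where it called 0.410% of all tested probe sets. Before adjustment, 8 of the 109 had p under 0.05 with a higher and 18 with a lower level in ethanol rats, beside 8.08% and 10.3% of all tested probe sets. The median log2 change of the 109 was 0.03.

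**Figure D3:**
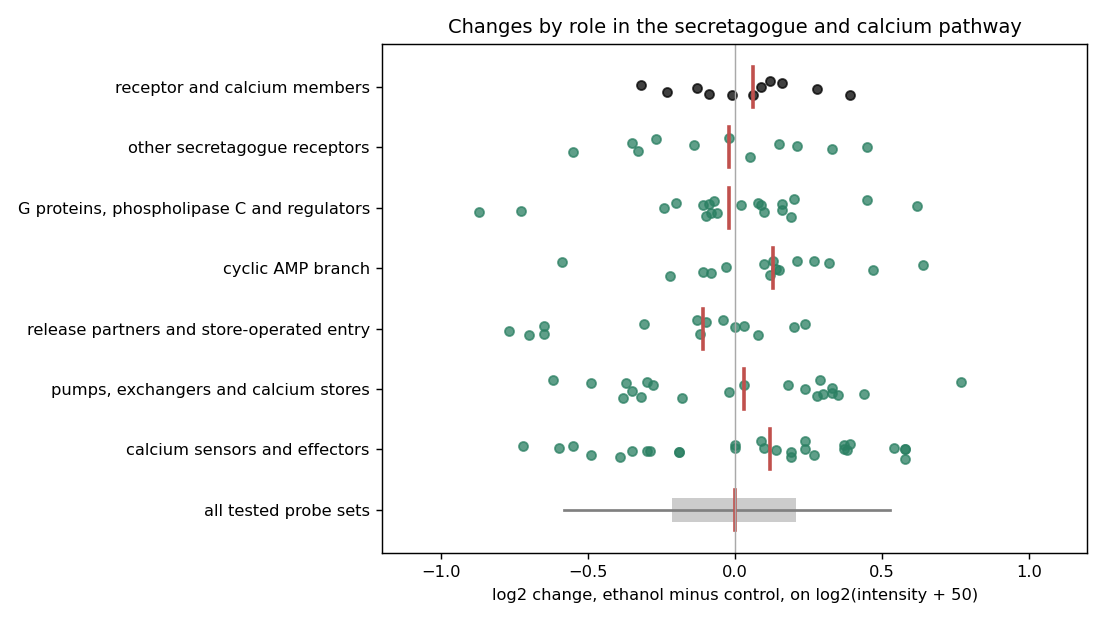
Log2 change, ethanol minus control (x axis), of the 11 tested probe sets of the set (black) and of 109 pathway genes by role (green), with the median of each row in red; the bottom row gives the median, quartiles (box) and 5th to 95th percentiles (line) of all 9520 tested probe sets. The 11 lie between -0.32 and 0.39, within the 5th to 95th percentiles of all tested probe sets, -0.58 and 0.53.

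For other secretagogue receptors, 0 of 11 tested genes had an unadjusted limma p under 0.05, beside 18.4% of all tested probe sets. This count reads each gene on its probe set of highest mean. The other tested probe set of Adcyap1r1 was under that threshold (log2 change 0.76, limma unadjusted p = 0.0141). Cckbr, the gastrin and cholecystokinin B receptor, read 1427, 1053 and 1021 in ethanol rats, against 984, 891 and 854 in control rats, higher on every ethanol array (log2 change 0.33, SE 0.17, limma adjusted p = 0.336). Chrm5, another Gq-coupled muscarinic receptor, was at 0.45 (SE 0.22) and F2rl1, the protease-activated receptor PAR2, at 0.21 (SE 0.17), with overlapping diets. Cckar, the main cholecystokinin receptor of rat acinar cells, had no probe set that the platform annotation ties to it alone, so it was not read.

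Of 20 genes of G proteins, phospholipase C and their regulators, 3 had an unadjusted p under 0.05, 1 above and 2 below control. Over all tested probe sets the share was 18.4%, with 8.08% above and 10.3% below control. Plcb3, a phospholipase C that Gq proteins activate, read 519, 438 and 581 in ethanol rats, against 951, 1054 and 679 in control rats. Every ethanol array was below every control array (log2 change -0.73, SE 0.19, limma adjusted p = 0.125). Gna12, a G protein alpha subunit, was at -0.87 (SE 0.20, limma adjusted p = 0.101), while its other tested probe set was at 0.20. Rgs3, a regulator that speeds GTP hydrolysis by Gq and Gi proteins, was at 0.45 (SE 0.15), and its other probe set at -0.19.

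In the cyclic AMP branch, which Sctr and Vipr1 feed, 3 of 15 genes had an unadjusted p under 0.05, 2 above and 1 below control. That threshold was met by 18.4% of all tested probe sets, 8.08% above and 10.3% below control. Adcy2, an adenylyl cyclase, read 1501, 1189 and 1273 in ethanol rats, against 874, 852 and 755 in control rats, with no overlap (log2 change 0.64, SE 0.15, limma adjusted p = 0.101). Prkar1b, a regulatory subunit of protein kinase A, read 2922, 2781 and 3295 in ethanol rats, against 4375, 4811 and 4445 in control rats, also with no overlap (log2 change -0.59, SE 0.14, limma adjusted p = 0.101). Akap1, an anchor of that kinase at mitochondria, was at 0.47 (SE 0.14), and its other probe set at 0.18.

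Of 14 genes in the list of release partners and store-operated entry, 4 were lower at an unadjusted p under 0.05 and 0 were higher. That count reads each gene on its probe set of highest mean. At the same threshold, 10.3% of all tested probe sets were lower and 8.08% higher. Homer1, 1 of the 14, was at -0.04 on that probe set and at 0.46 on its other one (SE 0.16, limma unadjusted p = 0.0205, adjusted p = 0.189). Saraf, which turns off store-operated calcium entry, had the smallest p of the 109. It read 6406, 6071 and 7323 in ethanol rats, against 12350, 10657 and 10842 in control rats, every ethanol array below every control array. Its log2 change was -0.77 (SE 0.15, limma adjusted p = 0.0764), and limma called it with a variance trend (adjusted p = 0.00597) and when probe sets under the 60th percentile of mean level were left out (adjusted p = 0.0343). It was not called in the other 11 settings, where the adjusted p reached 0.218. The calcium-activated cation channel Trpm4 was at -0.65 (SE 0.20, limma adjusted p = 0.161). Trpm7, a channel with a kinase domain, was at -0.65 (SE 0.21), and its other probe set at -0.06.

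**Figure D4:**
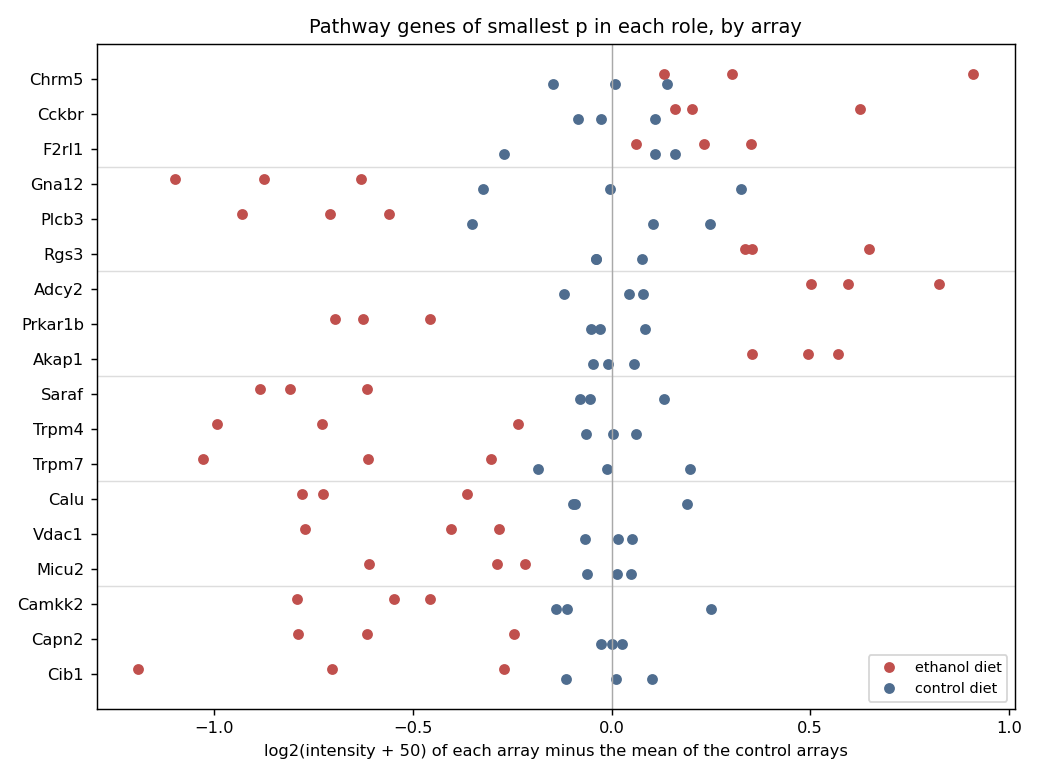
The 3 genes of smallest p in each of the 6 roles, with log2(intensity + 50) of each array minus the mean of the control arrays (x axis), ethanol arrays in red above control arrays in blue; grey lines part the roles. Saraf, Plcb3 and Prkar1b lie lower and Adcy2 lies higher on all 3 ethanol arrays, and no probe set shown passed after adjustment.

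Among 21 further genes of pumps, exchangers and calcium stores, 6 had an unadjusted p under 0.05, all of them below control. Of all tested probe sets, 10.3% were lower and 8.08% higher at that threshold. The changes of the 21 went both ways, 11 above 0 and 10 below, with a median of 0.03. Calu, a calcium-binding protein of the secretory pathway, was at -0.62 (SE 0.17, limma adjusted p = 0.133), and Micu2, a gatekeeper of the mitochondrial calcium uniporter, at -0.37 (SE 0.15, limma adjusted p = 0.249). Vdac1, a channel of the outer mitochondrial membrane, was at -0.49 (SE 0.16, limma adjusted p = 0.178) on its brighter probe set. On the dimmer one Vdac1 read 671, 520 and 410 in ethanol rats, against 1202, 1486 and 1335 in control rats, and fell (log2 change -1.27, SE 0.19, limma adjusted p = 0.0448). It was the single called probe set of the 133 that the 109 genes have among those tested. That call held in 5 of 13 alternative fits: limma's adjusted p was 0.168 without the filter, 0.0514 with a constant of 20 and 0.13 with the replicate block. Without control rats 1, 2 and 3 it was 0.157, 0.187 and 0.131, and without ethanol rats 2 and 3 it was 0.0918 and 0.133. The log2 change itself ran from -1.44 to -1.11.

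Calcium sensors and effectors went both ways. At an unadjusted limma p under 0.05, 8.08% of all tested probe sets were higher and 10.3% lower. In this list 10 of 28 genes had such a p, 5 above and 5 below control. Those of smallest p were the calmodulin-dependent kinase kinase Camkk2 (-0.60, SE 0.17), the calpain Capn2 (-0.55, SE 0.17) and the calcium and integrin binding protein Cib1 (-0.72, SE 0.23). On these 3 every ethanol array was below every control array, as on 14.3% of all tested probe sets. The limma adjusted p of the 3 ran from 0.138 to 0.166.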

How the data were processed

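The authors deposited 1 intensity per probe set and array, as whole numbers on a linear scale. No scanner, software or normalization is given in the sources used here. Between 931 and 949 values per array were below 0, so some signal had been subtracted, and how is not known. The log2 medians of the arrays differed by at most 0.00243, so the values were used as deposited. The labels' protocols describe total RNA from a column kit and biotin-labelled cRNA.

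Of 15923 probe sets, 57 controls were left out. The platform annotation pairs 12783 probe sets with a single symbol, 312 with several and 2771 with none; the symbols of all 9 genes are current in RefSeq (GRCr8). Values below 0 were set to 0, 50 was added and the log2 taken. Probe sets with a mean log2 at or above the 40th percentile (an intensity of about 392) were tested, 9520 in all, with limma 3.58.1 in R 4.3.3 (2 groups, no block, empirical Bayes, Benjamini-Hochberg over all tested, called under 0.05). Of the 9 genes, Chrm1 and Vipr1 had no probe set above this filter. Probe sets of 1 gene were compared by an exact permutation test in scipy 1.17.1. In 10 simulations with the 9520 probe sets of this comparison, 59.9% of the 2-fold and 93.3% of the 4-fold changes were recovered, and 4.61% of calls were false. These simulations used independent noise and changed a small share of probe sets. Changes as small as those of the 9 genes, a fold of 1.31 for Chrm3, were not simulated. The number of arrays limits the precision.

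The members, lists and motifs were chosen with earlier results of these data known. Named were all probe sets of the 9 genes, the 3 genes of smallest p in each of 6 pathway lists, from the 2 brightest markers of each cell type list those a result touches, and the 3 probe sets most like the member of smallest p. A pathway gene was read on its tested probe set of highest mean. Alternatives were constants of 20 and 100, quantile normalization, a variance trend, the filter dropped or set at the 60th percentile, the replicate number as a block, probe sets averaged per gene, and each array left out. Promoter windows come from RefSeq, and 50 bases after each start were left out.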

Additional observations from a re-analysis of the deposited data

How the results depend on the processing

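No probe set of the 9 genes passed under any of the 13 other settings, and over their 143 alternative fits the lowest limma adjusted p was 0.171 (Chrm3 with a filter at the 60th percentile). Chrm3 stayed positive (0.29 to 0.48) and Itpr3 negative (-0.41 to -0.27) in all of them. Among tested probe sets the sign turned for changes near 0: with 1 array left out, Atp2a2 probe set 1369065_a_at ran from -0.20 to 0.10, 1375164_at from -0.06 to 0.23 and 1398862_at from -0.23 to 0.04, Itpr1 from -0.03 to 0.19 and Itpr2 probe set 1369676_at from -0.03 to 0.23; averaged over both probe sets Itpr2 was at -0.06. Differences between probe sets also turned: those of Atp2a2 1369065_a_at ran from -0.02 to 0.21 against 1370426_a_at, from -0.43 to 0.13 against 1375164_at and from -0.12 to 0.33 against 1398862_at, those of 1370426_a_at from -0.44 to 0.0 against 1375164_at and from -0.13 to 0.12 against 1398862_at, that of 1375164_at against 1398862_at from -0.10 to 0.35, and that of the Chrm3 probe sets from -0.22 to 0.78. Over the whole array limma called 0 probe sets without the filter (2263 at an unadjusted p under 0.05), 134 with the filter at the 60th percentile, 249 with a variance trend and 2 to 38 with 1 array left out. Of the 109 pathway genes it called 1 with that filter (Saraf) and 2 with the trend (Saraf and Prkar1b). Deviations from the diet means correlated by -0.0295, 0.0259 and -0.138 between rats of the same number. Between rats of different numbers they correlated by -0.0764 to 0.0949. With 3 rats per diet, these values do not show whether rats of the same number were paired. With the replicate block, 6 probe sets of the whole array, 0 of the 9 genes and 0 of the 109 were called. The causes of these shifts were not tested.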

Other observations

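Further pathway genes, most with no overlap between diets, chosen after their values were seen, did not pass by limma over all tested probe sets. Stim1, the ER calcium sensor that opens store-operated channels, read 278, 479 and 565 in ethanol rats, against 731, 753 and 678 in control rats (log2 change -0.70, SE 0.23, limma adjusted p = 0.171). Its channel partner Orai1 read 1301, 1424 and 1225 in ethanol rats, against 1456, 1619 and 1885 in control rats (-0.31, SE 0.15, limma adjusted p = 0.319). Both were thus lower on every ethanol array, as were Saraf and 14.3% of all tested probe sets. Other genes of their list differed: Trpc1 (-0.12) and Homer2 (-0.1) overlapped between diets. Tmbim6 was higher on every ethanol array (0.24, SE 0.14, limma adjusted p = 0.393), with its other probe set at -0.06. Atp2a3, which encodes SERCA3, read 1633, 1929 and 2138 in ethanol rats, against 1409, 1630 and 1397 in control rats (0.35, SE 0.16, limma adjusted p = 0.286).

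Some effectors were higher on every ethanol array, as were 11.1% of all tested probe sets. Ppp3ca, a catalytic subunit of calcineurin, was at 3115 ± 638 in ethanol rats and 2324 ± 43.2 in control rats (SD, n = 3). Its log2 change was 0.39 (SE 0.18, limma adjusted p = 0.288), and a further probe set of it was at 0.58. The calcineurin genes Ppp3cb (0.24, SE 0.19) and Ppp3r1 (0.1, SE 0.13) overlapped between diets, as did Rcan1 (-0.0, SE 0.29). Nfatc4, a transcription factor that calcineurin activates, was at 2221 ± 417 in ethanol rats and 1504 ± 172 in control rats (0.54, SE 0.18, limma adjusted p = 0.18). Camk2b was at 0.58 (SE 0.19) and the protein kinase C gene Prkca at 0.58 (SE 0.21). Other genes of the list were lower on every ethanol array, as were 14.3% of all tested probe sets. Among them were another protein kinase C gene, Prkcz (-0.49, SE 0.18), Anxa7 (-0.39, SE 0.16) and Pdcd6 (-0.35, SE 0.16). For Adcyap1r1, the PACAP receptor, the 2 tested probe sets had opposite signs. They were at -0.33 (SE 0.47, limma adjusted p = 0.737) and 0.76 (SE 0.25, limma unadjusted p = 0.0141, adjusted p = 0.168).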
